A study of Homo sapiens with 4 samples.

Results

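The SLC25 genes encode the mitochondrial carriers, a family of membrane proteins made from nuclear genes that pass nucleotides, phosphate, carboxylates, amino acids, cofactors and metals across the inner mitochondrial membrane. The members were all protein-coding genes whose symbol is SLC25A followed by a number, which gave 47 genes on 48 rows of the table. Of these, 45 were tested, among the 23333 genes tested in all, and 40 had a mean normalized count over 50. Both rows of SLC25A6 (ADP/ATP carrier isoform) and the row of SLC25A52 (NAD carrier) were listed at 0.

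RNA was sequenced from the nuclear and the cytoplasmic fraction of wildtype HEK293T cells, an established human embryonic kidney line, with 2 libraries of each fraction. The cells of both fractions were crosslinked with formaldehyde, no other treatment or genotype was used, and 400 ng of RNA, freed of ribosomal RNA, went into every library and was read in pairs of 100 nt. The methods describe the libraries of a fraction as independent biological replicates. The labels number the replicates alike in both fractions, and whether a shared number means the same cells is not stated in the sources used. Counts in exons and introns were summed per gene, so a gene's level holds unspliced as well as spliced RNA.

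The deposited table gives each gene's mean normalized count over the 4 libraries, its log2 fold change of cytoplasmic over nuclear and the standard error of that fold change. The counts of the single libraries were worked back from these 3 values as whole numbers. They return the deposited fold change of every tested member to within 9.85e-07 on the log2 scale. Where more than 1 solution was possible, as with 65 for SLC25A13, the one nearest the deposited fold change was taken. For such members the match is therefore not a separate check. The closest next best solution, that of SLC25A3, missed the fold change by 5.85e-06. The worked-back libraries held 15405284 to 22817945 counts, without the genes that could not be worked back. Of the 23333 tested genes 23228 were worked back, and the 56 most abundant were among those left out. They could not be tied to the replicate numbers of the labels, and are called nuclear a and b and cytoplasmic a and b.

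The cell line and the fractions were checked by their markers. LIN28B (mean normalized count 3376), NEFL (13195), NEFM (16264) and GATA3 (161), which HEK293 cells express, were present, and the markers of blood, liver and muscle PTPRC, ALB, HBB and MYH7 had means of 1.76 or less. The nuclear RNAs MALAT1 and NEAT1 were higher in the nuclear fraction, with log2 fold changes of -3.47 and -3.09. RPLP0 and RPS2, messenger RNAs of ribosomal proteins, were higher in the cytoplasmic fraction, with log2 fold changes of 3.77 and 3.78.

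Messenger RNAs are made and spliced in the nucleus and translated in the cytoplasm. The RNA of a carrier gene can therefore be found in both fractions, and the comparison asked where the RNA of each SLC25 gene was relatively more abundant. Each library is scaled to its own content, so a fold change is relative to the other genes and does not give the share of a gene's molecules in each compartment.

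The family was split between the fractions. At an adjusted p of at most 0.01 in the deposited DESeq2 test, 20 of the 45 tested SLC25 genes (44.4%) were higher in the cytoplasmic fraction. The share was 25.9% over all 23333 genes and 35.6% over the protein-coding ones. Another 13 (28.9%) were higher in the nuclear fraction, where the shares were 26.5% and 28.4%. The remaining 12 passed in neither direction. The median log2 fold change of the 45 genes was 0.34, beside -0.12 over all tested genes and 0.11 over the protein-coding genes. The family ran from 3.61 for SLC25A5, a 12.2-fold difference, to -3.70 for SLC25A21 in the other direction. These calls are named cytoplasmic and nuclear calls from here on.

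These counts depend on how the fractions are scaled to each other. The summed normalized counts were 1.58 times higher in the cytoplasmic fraction, and giving both fractions equal totals lowered every log2 fold change by 0.66. With equal totals, 12 SLC25 genes were higher in the cytoplasmic fraction, where 16.2% of all tested genes were, and 19 in the nuclear fraction, where 38.3% were. All 12 and 13 of the 19 had been called the same way at the deposited scale. The 8 cytoplasmic calls lost were SLC25A20, SLC25A24, SLC25A25, SLC25A30, SLC25A32, SLC25A44, SLC25A45 and SLC25A51, and the 6 nuclear calls gained were SLC25A13, SLC25A29, SLC25A33, SLC25A35, SLC25A37 and SLC25A43.

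In the worked-back libraries, both cytoplasmic values lay above both nuclear values in 23 of the 45 members and below both in 17, and the fractions overlapped in 5. Over the 23228 tested genes worked back, 40.4% lay above and 45.6% below. The 5 members that overlapped were SLC25A13, SLC25A29, SLC25A41, SLC25A43 and SLC25A47. A limma test on log2 values of these libraries called the same 20 members higher in the cytoplasmic fraction and the same 13 higher in the nuclear fraction, and added SLC25A35 to the latter. Over all 23228 genes it called 27.8% and 31.4%. When either nuclear library was left out, no gene of the whole table passed 0.01 in limma, while at 0.05 limma still made at least 19 cytoplasmic and 11 nuclear calls among the members and 10414 or 10764 calls over all 23228 genes.

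**Figure D1:**
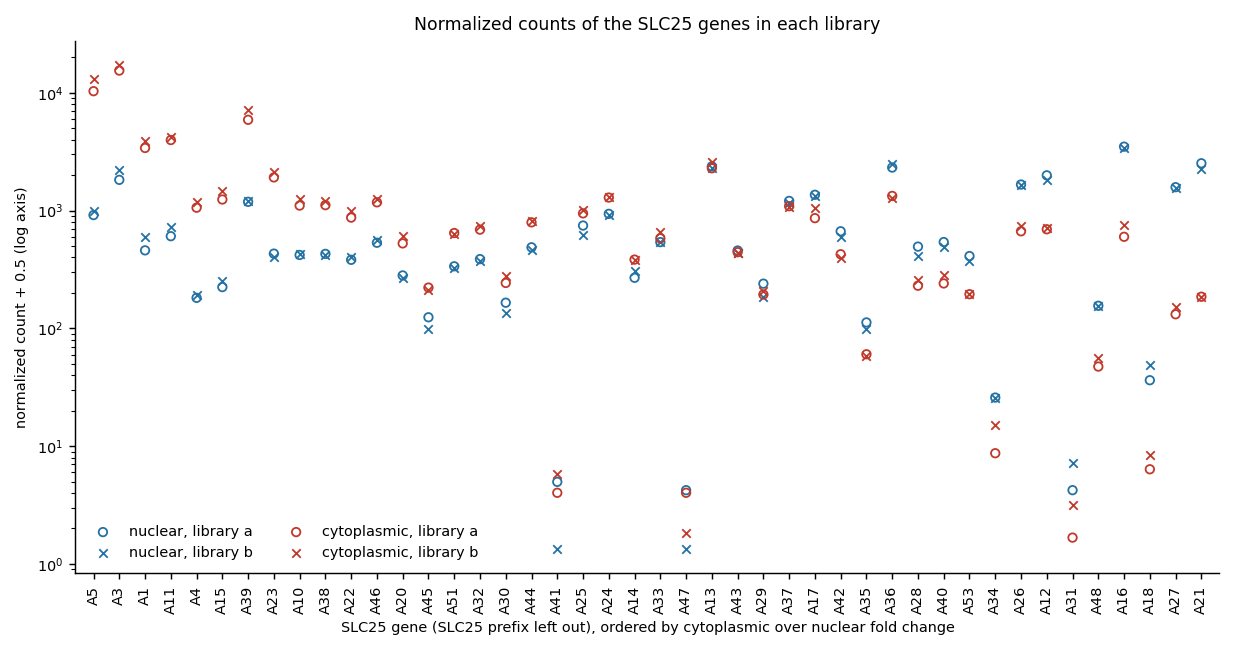
Normalized count plus 0.5 of 44 of the 45 tested SLC25 genes in each of the 4 worked-back libraries, on a log axis, with genes ordered by their cytoplasmic over nuclear fold change. Blue marks are nuclear and red marks cytoplasmic libraries, and the 2 libraries of a fraction lie closer to each other than to the other fraction at both ends of the order, where SLC25A5 runs from 917 to 13069 and SLC25A21 from 184 to 2524.

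The largest cytoplasmic difference of the family was in a carrier of adenine nucleotides, and of the 8 tested genes of the adenine nucleotide and phosphate carriers 6 were higher in the cytoplasmic fraction, none was higher in the nuclear fraction, and the median log2 fold change was 1.50. SLC25A5 is an ADP/ATP carrier, which exchanges mitochondrial ATP for cytosolic ADP. Its normalized counts were 917 and 996 in the nuclear libraries and 10338 and 13069 in the cytoplasmic libraries. The fractions were far apart, by 12.2-fold, and the log2 fold change was 3.61 ± 0.13 (SE; DESeq2 adjusted p = 5.82e-165).

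SLC25A3 brings phosphate for ATP synthesis into the matrix. Its normalized counts were 1826 and 2223 in the nuclear libraries and 15466 and 17273 in the cytoplasmic libraries, with no overlap, and its log2 fold change was 3.02 ± 0.12 (SE; DESeq2 adjusted p = 2.52e-130). SLC25A4, the ADP/ATP carrier known from heart and skeletal muscle, had 181 and 191 in the nuclear libraries against 1059 and 1183 in the cytoplasmic libraries. Its fractions did not overlap, with a log2 fold change of 2.59 ± 0.16 (SE; DESeq2 adjusted p = 4.3e-55). Both ADP/ATP carrier genes with a mean over 50 were thus higher in the cytoplasmic fraction.

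The calcium-regulated ATP-Mg/phosphate carriers SLC25A23, SLC25A24 and SLC25A25 were also all higher in the cytoplasmic fraction, with log2 fold changes of 2.28 ± 0.14, 0.48 ± 0.13 and 0.51 ± 0.15 (SE). SLC25A24 and SLC25A25 were no longer called with equal totals, at -0.18 and -0.15, whereas SLC25A23 stayed at 1.62. The related SLC25A41 and the testis ADP/ATP carrier SLC25A31 had means of 3.53 and 3.57 and did not pass. SLC25A6, listed at 0, lies in the pseudoautosomal region, and all of its 1058 annotated exonic windows of 100 bases occur again in the genome, where reads cannot be placed uniquely. Whether this is why it is listed at 0 was not tested.

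Among the carriers of di- and tricarboxylates, 3 of 4 genes were higher in the cytoplasmic fraction and the fourth was the most nuclear gene of the family. SLC25A1 exports citrate for fatty acid synthesis. Its normalized counts were 459 and 593 in the nuclear libraries and 3405 and 3867 in the cytoplasmic libraries, a log2 fold change of 2.79 ± 0.14 (SE; DESeq2 adjusted p = 1.54e-81). SLC25A11, the 2-oxoglutarate/malate carrier of the malate-aspartate shuttle, had 606 and 719 against 3976 and 4239, a log2 fold change of 2.63 ± 0.13 (SE; DESeq2 adjusted p = 3.48e-92). SLC25A10, the dicarboxylate carrier, was higher in the cytoplasmic fraction by a log2 fold change of 1.48 ± 0.15 (SE).

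SLC25A21 carries oxodicarboxylates of lysine and tryptophan breakdown. Its normalized counts were 2524 and 2270 in the nuclear libraries and 185 and 184 in the cytoplasmic libraries, so the order of the fractions was opposite to that of the other 3 genes. The log2 fold change was -3.70 ± 0.15 (SE; DESeq2 adjusted p = 2.16e-126). SLC25A21 has the longest span of the family, 494.7 kb, while SLC25A1 and SLC25A11 span 3.16 and 2.92 kb.

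**Figure D2:**
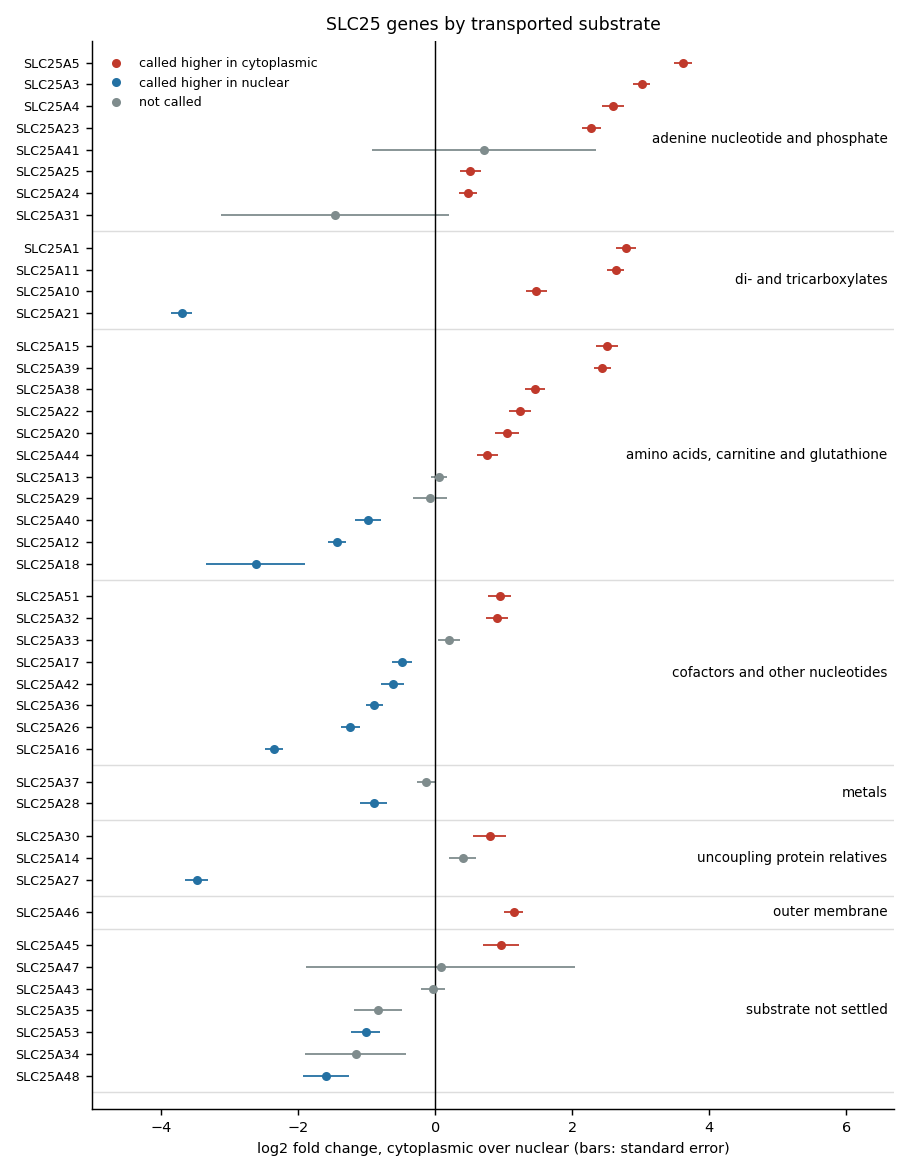
Log2 fold change of cytoplasmic over nuclear for 44 of the 45 tested SLC25 genes, grouped by what the carrier transports, with bars of 1 standard error; red genes were called higher in the cytoplasmic, blue in the nuclear fraction and grey in neither. Each of the groups with 4 or more genes other than the adenine nucleotide and phosphate carriers holds calls in both directions.

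Carriers of amino acids, carnitine and glutathione went both ways, with 6 cytoplasmic and 3 nuclear calls among 11 genes and a median log2 fold change of 0.76. SLC25A15, the ornithine carrier of the urea cycle, had normalized counts of 224 and 252 in the nuclear and 1243 and 1456 in the cytoplasmic libraries. Its fractions did not overlap either, with a log2 fold change of 2.50 ± 0.16 (SE; DESeq2 adjusted p = 1.12e-53). SLC25A39, a carrier needed for glutathione import, had 1188 and 1214 against 5908 and 7112, a log2 fold change of 2.44 ± 0.12 (SE; DESeq2 adjusted p = 1.36e-84).

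The other genes of this group higher in the cytoplasmic fraction were SLC25A38, which carries glycine for heme synthesis, at 1.45 ± 0.15, the glutamate carrier SLC25A22 at 1.24 ± 0.16, the carnitine/acylcarnitine carrier SLC25A20 at 1.05 ± 0.18 and SLC25A44, a carrier of branched-chain amino acids, at 0.76 ± 0.15 (log2 fold change ± SE). The last 2 were no longer called with equal totals.

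Close relatives in this group were placed differently. SLC25A40, the relative of SLC25A39, was higher in the nuclear fraction with a log2 fold change of -0.98 ± 0.19 (SE). The glutamate carrier SLC25A18 was higher in the nuclear fraction at -2.62 ± 0.72 (SE), on a mean of only 24.6, while its relative SLC25A22 had been higher in the cytoplasmic fraction. SLC25A12 and SLC25A13 both encode aspartate/glutamate carriers of the malate-aspartate shuttle. SLC25A12 had normalized counts of 1994 and 1817 in the nuclear and 694 and 718 in the cytoplasmic libraries, a log2 fold change of -1.43 ± 0.13 (SE; DESeq2 adjusted p = 3.16e-26). SLC25A13 had 2377 and 2307 in the nuclear and 2290 and 2567 in the cytoplasmic libraries, and the fractions overlapped. Its log2 fold change of 0.05 ± 0.12 (SE) did not pass (DESeq2 adjusted p = 0.733). With equal totals it was -0.61 and was called higher in the nuclear fraction. These pairs were singled out after their values were seen, so the differences within them are a description and were not tested.

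SLC25A29, a carrier of basic amino acids, was near 0 too. Its normalized counts were 239 and 182 in the nuclear and 193 and 208 in the cytoplasmic libraries, with both cytoplasmic values between the nuclear values, and its log2 fold change was -0.07 ± 0.24 (SE; DESeq2 adjusted p = 0.817). Leaving out nuclear library a turned it to 0.14.

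Of the 9 tested carriers of cofactors and of other nucleotides, 5 were nuclear and 2 cytoplasmic calls, with a median log2 fold change of -0.48. SLC25A16, linked to the import of coenzyme A, had normalized counts of 3494 and 3427 in the nuclear and 599 and 758 in the cytoplasmic libraries. Both nuclear libraries were above both cytoplasmic libraries, and the log2 fold change was -2.35 ± 0.14 (SE; DESeq2 adjusted p = 6.25e-65). SLC25A42, the coenzyme A carrier, was also higher in the nuclear fraction, at -0.62 ± 0.17 (SE). SLC25A26 carries S-adenosylmethionine, the methyl donor of mitochondrial RNA and protein methylation. It had 1665 and 1659 in the nuclear and 667 and 745 in the cytoplasmic libraries, a log2 fold change of -1.24 ± 0.14 (SE; DESeq2 adjusted p = 2.78e-19).

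SLC25A36, a pyrimidine nucleotide carrier, was higher in the nuclear fraction at -0.89 ± 0.12, and so was SLC25A17, a member of the peroxisomal membrane, at -0.48 ± 0.14 (log2 fold change ± SE). SLC25A33, the other pyrimidine nucleotide carrier, had a log2 fold change of 0.20 ± 0.16 (SE) and did not pass. The members higher in the cytoplasmic fraction were the NAD carrier SLC25A51 at 0.95 ± 0.17 and the folate and flavin carrier SLC25A32 at 0.90 ± 0.16 (log2 fold change ± SE), and neither was called with equal totals.

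The mitoferrins, which import iron for heme and iron-sulfur clusters, were SLC25A28 at -0.90 ± 0.20, higher in the nuclear fraction, and SLC25A37 at -0.13 ± 0.13, which did not pass (log2 fold change ± SE). Of the relatives of uncoupling proteins, SLC25A27 stood far from SLC25A14 and SLC25A30. SLC25A27, known from neurons, had normalized counts of 1582 and 1554 in the nuclear and 131 and 151 in the cytoplasmic libraries. The nuclear counts were 11.1-fold higher, with a log2 fold change of -3.48 ± 0.17 (SE; DESeq2 adjusted p = 8.35e-94). SLC25A30 was higher in the cytoplasmic fraction at 0.80 ± 0.24 (SE), and SLC25A14 had 0.40 ± 0.19 (SE) and did not pass.

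SLC25A46, which sits in the outer membrane and takes part in mitochondrial fusion and fission, was higher in the cytoplasmic fraction at 1.15 ± 0.14 (SE). Of 7 tested genes whose substrate was taken as not settled, SLC25A45 was higher in the cytoplasmic fraction at 0.96 ± 0.26, and SLC25A48 and SLC25A53 were higher in the nuclear fraction (log2 fold change ± SE). SLC25A48 had normalized counts of 155 and 154 in the nuclear and 46.9 and 55.7 in the cytoplasmic libraries, a log2 fold change of -1.59 ± 0.33 (SE; DESeq2 adjusted p = 3.66e-06), and SLC25A53 had -1.01 ± 0.21 (SE). SLC25A43 had 458 and 437 against 443 and 433, so its fractions overlapped, with a log2 fold change of -0.03 ± 0.17 (SE; DESeq2 adjusted p = 0.895). With equal totals SLC25A43 was called higher in the nuclear fraction at -0.69. SLC25A34, SLC25A35 and SLC25A47 did not pass, at -1.16 ± 0.74, -0.84 ± 0.35 and 0.08 ± 1.96 (log2 fold change ± SE), on means of 18.3, 82.3 and 2.35.

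The summed normalized count of the 45 genes was 34114 and 33861 in the nuclear libraries and 64294 and 72838 in the cytoplasmic libraries, a ratio of 2.02. Most of that difference lay in 3 genes, SLC25A3, SLC25A5 and SLC25A39. They held 11.5% and 13.1% of the family's normalized count in the nuclear libraries and 49.3% and 51.4% in the cytoplasmic libraries. Without them the ratio was 1.14, and with equal totals the ratios were 1.27 for all 45 genes and 0.72 without the 3. Counts were not corrected for gene length.

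Gene structure varied widely within the family. In the annotation of human genome build hg38 (GENCODE release 44), SLC25A5 lies at chrX:119468422-119471396 on the + strand and SLC25A3 at chr12:98593591-98606379 on the + strand. SLC25A1 lies at chr22:19175581-19178739 on the - strand. At the nuclear end, SLC25A21 lies at chr14:36677921-37172606 on the - strand, SLC25A27 at chr6:46652915-46678190 on the + strand and SLC25A16 at chr10:68477998-68527523 on the - strand.

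Across the 45 genes, Spearman's rho of genomic span with log2 fold change was -0.61, and it was -0.71 over the 40 genes with a mean over 50. Over the 12134 protein-coding genes with a mean over 50 and an annotated span, rho was -0.71 too. Intron length gave -0.63 over the 45 genes, and exonic length -0.25. These correlations are across genes, which share the same 4 libraries and are not independent replicates. A longer gene also offers more intron to the counting, and the part of this in the correlations was not tested.

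Of 15 SLC25 genes under 15 kb, 10 were cytoplasmic calls and 1, SLC25A28, a nuclear call, with a median log2 fold change of 1.45, where 81.6% of 2988 protein-coding genes with a mean over 50 were cytoplasmic and 5.56% nuclear calls. Of 13 genes of 15 to 40 kb, 7 were cytoplasmic and 3 nuclear calls, with a median of 0.76, beside 55.1% and 16.1% of the protein-coding genes. Of 17 genes over 40 kb, 3 were cytoplasmic and 9 nuclear calls, with a median of -0.62, beside 17.9% and 56.6% of the protein-coding genes. Those protein-coding genes had medians of 1.72, 0.62 and -0.66 in the same classes. SLC25A27 was an exception to this order, with a span of 25.3 kb and the second most nuclear fold change. SLC25A13 was another, near 0 with a span of 201.9 kb. The SLC25 genes of each class were not filtered on their mean, unlike the protein-coding genes, so the sets are not alike. SLC25A34, SLC25A41 and SLC25A47 under 15 kb had means of 18.3, 3.53 and 2.35 and were not called. SLC25A18 of 15 to 40 kb (mean 24.6, a nuclear call) and SLC25A31 over 40 kb (mean 3.57, not called) were also below the limit of 50.

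**Figure D3:**
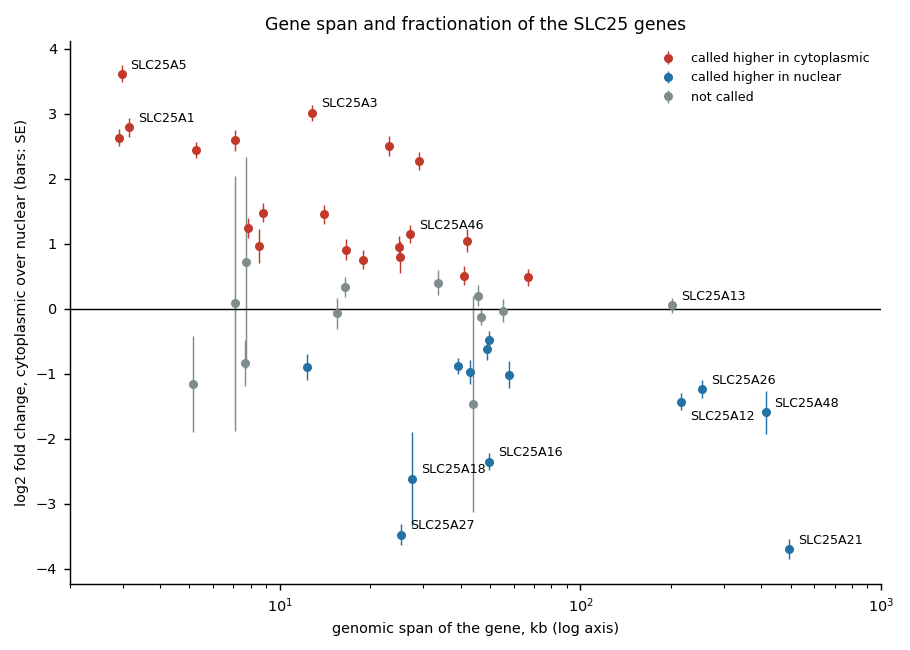
Log2 fold change of cytoplasmic over nuclear (bars of 1 standard error) against genomic span in kb on a log axis for the 45 tested SLC25 genes, coloured by call as red for cytoplasmic, blue for nuclear and grey for neither. The shortest genes, SLC25A11, SLC25A5 and SLC25A1 with 2.92 to 3.16 kb, lie between 2.63 and 3.61, the 4 called genes of 216.5 to 494.7 kb lie between -1.24 and -3.70, and SLC25A27 lies at -3.48 with 25.3 kb.

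Neighbouring genes overlap some members. Regions shared by several genes had been removed from the annotation that was counted, so such a member was measured over the rest of its span, and how much of each gene was left is not given in the sources used here. In release 44, SLC25A12 shares 61239 bases with HAT1 on the other strand (mean normalized count 1477, log2 fold change 0.00), SLC25A26 shares 9320 bases with LRIG1 (mean 2139, log2 fold change 0.02) and SLC25A21 shares 1442 bases with PAX9 (mean 174, log2 fold change 0.06). The antisense RNA TDRD6-AS1, the only gene annotated across SLC25A27, had a mean of 0.817. TDRD6-AS1 shares 7747 bases with SLC25A27, and 58.2% of the exonic bases of SLC25A27 are shared. Large exonic shares among the other nuclear calls were those of SLC25A18 (63.98%), SLC25A48 (44.98%), SLC25A21 (38.9%) and SLC25A26 (28.6%). Among the cytoplasmic calls, SLC25A30 and SLC25A51 had 100%, SLC25A32 99.4% and SLC25A10 81.8%. In release 44 the shared part of the whole span was 100% for SLC25A51 and 99.9% for SLC25A32, yet their means were 484 and 548. For these genes, the overlaps of release 44 therefore do not give the bases that were counted. Most shared bases of SLC25A51, SLC25A32 and SLC25A10 lay in unnamed protein-coding genes on the same strand, for which no value was listed. Which bases were left out of the counted annotation, and with what effect on the fold changes, was not tested. SLC25A30, with a span of 25140 bases, shares 24660 of them with TPT1-AS1 (mean 564, log2 fold change -3.63), SLC25A46 shares 821 bases with TMEM232 (mean 240, log2 fold change -2.93) and SLC25A25 shares 665 bases with SLC25A25-AS1 (mean 166, log2 fold change -1.92). The part of these neighbours in the members' values was not tested. Of the exonic 100-base windows of SLC25A23, 11.5% occur again elsewhere in the genome, and of SLC25A52, 12.6%.

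Promoter sequences of members at both ends of the order are shown to set the 2 ends side by side, though the reads do not measure promoters. RefSeq promoters of build GRCh38.p14 were matched for 38 of the 45 tested members. For the 3 most cytoplasmic and the 2 most nuclear called members with a promoter entry of sufficient length, the 100 bases before the outermost annotated start are printed 5′ to 3′. Capitals mark matches, on either strand, to the GC box GGGCGG and the CCAAT box CCAAT, and adjacent or overlapping matches run together.
SLC25A5, chrX:119468322-119468421, + strand: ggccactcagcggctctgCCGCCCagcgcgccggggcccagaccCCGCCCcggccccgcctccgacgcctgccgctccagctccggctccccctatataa
SLC25A3, chr12:98593491-98593590, + strand: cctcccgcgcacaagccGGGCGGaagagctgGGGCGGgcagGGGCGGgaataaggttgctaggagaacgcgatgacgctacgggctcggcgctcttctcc
SLC25A1, chr22:19178740-19178839, - strand: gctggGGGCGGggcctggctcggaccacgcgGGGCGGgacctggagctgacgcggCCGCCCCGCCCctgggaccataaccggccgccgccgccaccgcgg
SLC25A21, chr14:37172607-37172706, - strand: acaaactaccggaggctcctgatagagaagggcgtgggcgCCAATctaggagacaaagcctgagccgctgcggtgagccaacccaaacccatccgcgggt
SLC25A27, chr6:46652815-46652914, + strand: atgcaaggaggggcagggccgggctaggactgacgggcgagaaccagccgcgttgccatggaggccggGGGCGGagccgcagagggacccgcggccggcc

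The 3 cytoplasmic members held 2, 3 and 4 GC boxes in the printed bases, SLC25A27 held 1, and SLC25A21 held 1 CCAAT box and no GC box. In the 250 bases before the start, a GC box was found in 12 of 18 members called cytoplasmic, 8 of 12 called nuclear and 6 of 8 called in neither direction, against 42.3% of 27305 promoters. A CCAAT box was found in 6 of 18, 7 of 12 and 4 of 8, against 33.04%. The ETS core CCGGAAG was found in 5 of 18, 1 of 12 and 2 of 8, against 8.82%, and the E-box CACGTG in 3 of 18, 1 of 12 and 3 of 8, against 6.49%. The NRF1 palindrome, in 1.13% of promoters, was found in no member. The median G and C content of these 250 bases was 68.8% in the members called cytoplasmic, 60.4% in those called nuclear, 67.6% in those called in neither direction and 58% over all promoters. A match is a description of letters and not a site.

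The median of the SLC25 genes lay between those of the lists they were set beside. The list of respiratory chain subunits, which here also held those of ATP synthase, had 79 tested nuclear-encoded genes. Of these, 76 were cytoplasmic and 2 nuclear calls, with a median log2 fold change of 2.35. Their median span was 12.6 kb, where the SLC25 genes had 25.3 kb. Of 257 solute carriers outside SLC25, 64 were cytoplasmic and 73 nuclear calls, with a median of -0.37 and a median span of 42.3 kb. At a mean over 50, 176 of these carriers remained, with 64 cytoplasmic and 62 nuclear calls and a median of 0.04, beside 0.44 for the 40 SLC25 genes. With equal totals the medians were -0.32 for the SLC25 genes, 1.69 for the respiratory chain and -1.03 for the other solute carriers. These lists were set side by side without a test between them.

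**Figure D4:**
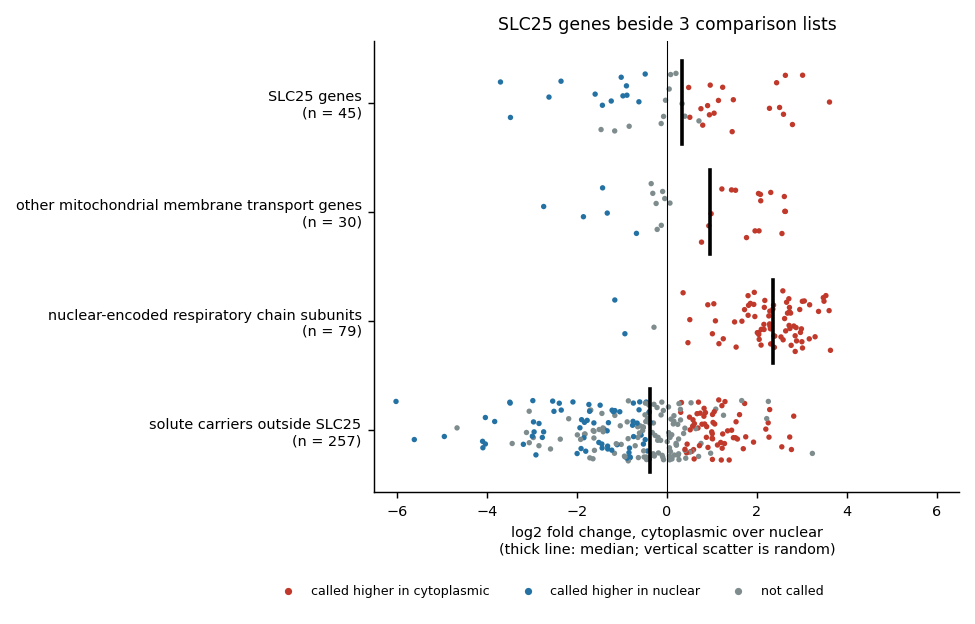
Log2 fold change of cytoplasmic over nuclear for the 45 tested SLC25 genes and the tested genes of 3 comparison lists, coloured by call, with a thick line at each median. The medians are 0.34 for the SLC25 genes, 0.96 for the 30 other mitochondrial membrane transport genes, 2.35 for the 79 respiratory chain subunits and -0.37 for the 257 other solute carriers. The transport genes include UCP2, UCP3, MTCH1 and MTCH2 of the carrier family, and the respiratory chain subunits include those of ATP synthase.

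Of 31 other genes of mitochondrial membrane transport, 30 were tested. This list is not wholly outside the carrier family, since UCP1, UCP2, UCP3, MTCH1 and MTCH2 are family members under other symbols. Of these, UCP1 was not tested. The log2 fold changes were 2.08 for MTCH1, 1.77 for MTCH2, 0.98 for UCP2 and -1.85 for UCP3, the last on a mean of 25.9. Over the 30 tested genes there were 17 cytoplasmic (56.7%) and 5 nuclear calls (16.7%), with a median log2 fold change of 0.96. Over all tested genes the shares were 25.9% and 26.5%. With equal totals the list had 14 cytoplasmic and 13 nuclear calls and a median of 0.30, where 16.2% and 38.3% of all tested genes were called. The largest cytoplasmic differences were in MPC2, a subunit of the pyruvate carrier, at 2.63 ± 0.15, GHITM, an inner membrane protein of proton and calcium exchange, at 2.62 ± 0.13, and TSPO, an outer membrane protein, at 2.61 ± 0.13 (log2 fold change ± SE). All 3 voltage-dependent anion channels, the pores of the outer membrane, were higher in the cytoplasmic fraction, with log2 fold changes of 2.05 for VDAC1, 2.31 for VDAC2 and 1.96 for VDAC3.

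The largest nuclear differences among them were in MICU3, a regulator of the calcium uniporter, at -2.74 ± 0.16, MCU, the uniporter pore, at -1.43 ± 0.12, and SFXN5, a sideroflexin, at -1.33 ± 0.17 (log2 fold change ± SE). SMDT1, the small essential subunit of the uniporter, was higher in the cytoplasmic fraction at 2.09 ± 0.21 (SE), so genes of the same channel were called in both directions. SMDT1 and the channels were named after their values were seen.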

How the data were processed

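Reads of 2 nuclear and 2 cytoplasmic libraries were aligned by the authors to hg38 with STAR and counted over exons and introns with featureCounts 2.0.2 (minimum overlap 20 bases) on an annotation derived from GENCODE release 34, from which overlapping regions and readthrough transcripts had been removed. The deposited table holds DESeq2 output with no column for a single library: a mean normalized count per gene (a signal averaged by the authors over the 4 libraries), a deposited log2 fold change with a standard error, a Wald statistic (a score computed by the authors), and the deposited p-value and its Benjamini-Hochberg adjusted p. These comparison columns of the authors are the values given here, at their threshold of 0.01, with genes lacking an adjusted p left out.

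Counts of single libraries were solved from the mean, fold change and standard error: each library's counts enter the mean in whole multiples of a step fixed by its size factor. The 4 steps were read from genes with 1 count, and 23228 of 23333 tested genes were solved. Size factors recomputed from the solved counts differed from the steps by at most 0.361%. The solution was tested on simulated data. It assumes that the authors ran DESeq2 with its default fit and without a pairing of the libraries. limma 3.58.1 (R 4.3.3), with a trend, was run on log2(normalized count + 0.5) of the solved libraries; a pseudocount of 2, each library left out and a block for either pairing of the libraries were alternatives, beside equal totals, centring, Bonferroni, a looser threshold of 0.05 and a mean over 50.

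Spans and overlaps came from GENCODE release 44 on hg38. The members and gene lists were chosen with earlier results of these data known. Members were named in their role groups, except 1 that is not reported here; full values were given for the 6 called members with the largest and the 6 with the smallest fold change at a mean over 50, the 6 with the highest mean, and those nearest 0. Fold changes depend on the size factors, since no spike-in scales the fractions. With 2 libraries a fraction, the spread rests on few samples.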

Additional observations from a re-analysis of the deposited data

How the results depend on the processing

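Solved libraries cannot be tied to the replicate numbers of the labels, so limma was fitted with a replicate block under both possible pairings, an alternative chosen after seeing the data. It made 20 cytoplasmic and 14 nuclear calls with a paired to a, and 22 and 14 with a paired to b. The 20 cytoplasmic and 13 nuclear calls became 12 and 19 with equal library totals and 13 and 8 when an absolute log2 fold change over 1 was also required. Bonferroni adjustment left 15 and 7. Centring, the threshold of 0.05, a mean over 50, limma and its larger pseudocount kept both counts within 1.5 times. Leaving out each library in turn in limma gave 0 to 16 cytoplasmic and 0 to 12 nuclear calls. The counts of 0 came without either nuclear library, where the prior degrees of freedom fell from 6.31 to 1.16 or 1.17 and no gene of the table passed 0.01. At 0.05 the same fits called 20 and 19 members cytoplasmic and 11 and 11 nuclear. In these fits the lone library is assumed to vary like the pair of the other fraction.

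The median log2 fold change of 0.34 turned to -0.32 with equal totals, was 0.48 when weighted by precision, and lay between 0.20 and 0.41 with a library left out. The correlation with span of -0.61 was -0.25 for exonic length and -0.71 at a mean over 50. Of the members given in full, signs turned only near 0: SLC25A13 was -0.61 with equal totals, and with a library left out it lay between -0.033 and 0.13, SLC25A43 between -0.063 and 0.0032 and SLC25A29 between -0.25 and 0.14. Genes with low counts, such as SLC25A31, SLC25A41 and SLC25A47, had standard errors of 1.63 to 1.96 on the log2 scale and no difference was detectable at this depth.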
